A study of Mus musculus with 6 samples.

Results

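The 38 genes described here encode the extracellular matrix of connective tissue, proteins of fibroblasts and smooth muscle, and proteins of endothelium, the cell layer that lines blood vessels. They were chosen by symbol with the in vivo results of these data in view, and make up 38 of 23091 gene symbols measured. Their summed level was used as a measure of stromal and endothelial RNA in libraries that the labels call T cells. Because the in vivo values and the comparison with day 3 chose the members, these values are given as descriptions and no test is made of them.

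The libraries came from naive CD4 T cells of wild-type C57/Bl6j mice aged 7 weeks, taken from spleen and nodes. All cells were stimulated through CD3 and CD28 by antibodies bound to the plate and received IL-4 (20 ng/ml), TGFβ (2 ng/ml) and an antibody that blocks IFNγ, which drives them toward Th9, the helper T cell state named for interleukin 9. The Th9 arm had no IL-1β and the Th9+IL-1β arm had 10 ng/ml of it. Each arm was sequenced after 1 h (rRNA-depleted RNA), at day 3 (poly(A)-selected RNA) and in vivo (poly(A)-selected RNA). For the in vivo pair, CD45.2 cells cultured for 3 days went into CD45.1 mice and were sorted out 1 week later; the labels name neither the tissue nor the number of mice. There was 1 library in each of the 6 groups, so nothing below has a replicate check. Values are the authors' FPKM, a fragment count scaled for transcript length and library size, with the authors' lower and upper bound; sequencing depth is unknown.

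Stroma is the supporting framework of an organ. Its fibroblasts secrete collagens, elastic fibre proteins, adhesive glycoproteins and proteoglycans, smooth muscle cells and pericytes surround vessels and airways, and endothelial cells form the vessel wall. A resting or activated T cell is not known as a source of fibrillar collagen, elastin or VE-cadherin, and reads of such genes in a sorted T cell sample are commonly used to judge how much RNA of other cells it carries.

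In culture most members stood at or near 0. At 1 h, 35 of 38 were listed at 0 in each library, and the highest was Pecam1 at 2.76 FPKM in the Th9 library and 2.67 FPKM in the Th9+IL-1β library. The 1 h libraries held few genes at such levels: 631 and 765 symbols reached 5 FPKM, against 7638 and 7313 at day 3, without and with IL-1β. A listed 0 at 1 h, here and below, is therefore weak evidence that a transcript was absent. At day 3, 23 members were listed at 0 in the Th9 library and 21 in the Th9+IL-1β library, and 34 of 38 stood under 1 FPKM in both. The 4 exceptions were Gsn, Pecam1, Fbln1 and Egfl7, which the cultured libraries held at 1 FPKM or more in both libraries. For these 4 genes the label of stromal or endothelial transcripts does not separate the sources of RNA. At day 3 the summed FPKM of the 38 members was 61.3 in the Th9 library and 59.9 in the Th9+IL-1β library, and these 4 genes made up 58.1 and 56.3 of it.

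In vivo 33 of 38 members had larger values than at day 3 without IL-1β (Lum was smaller, and Dcn, Pdgfra, Tagln and Mfap5 were at 0 in both), and all 38 had larger values with it. In the Th9 library 34 of 38 members were above 0, 14 reached 5 FPKM, and the median was 2.02 FPKM. In the Th9+IL-1β library all 38 were above 0, 31 reached 5 FPKM, and the median was 11.5 FPKM. The summed FPKM was 284 without IL-1β and 1499.9 with it, a ratio of 5.29, and went from 0.0785% to 0.408% of the summed FPKM of the library. In these bulk samples, more cells of a type and more RNA per cell cannot be told apart.

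**Figure D1:**
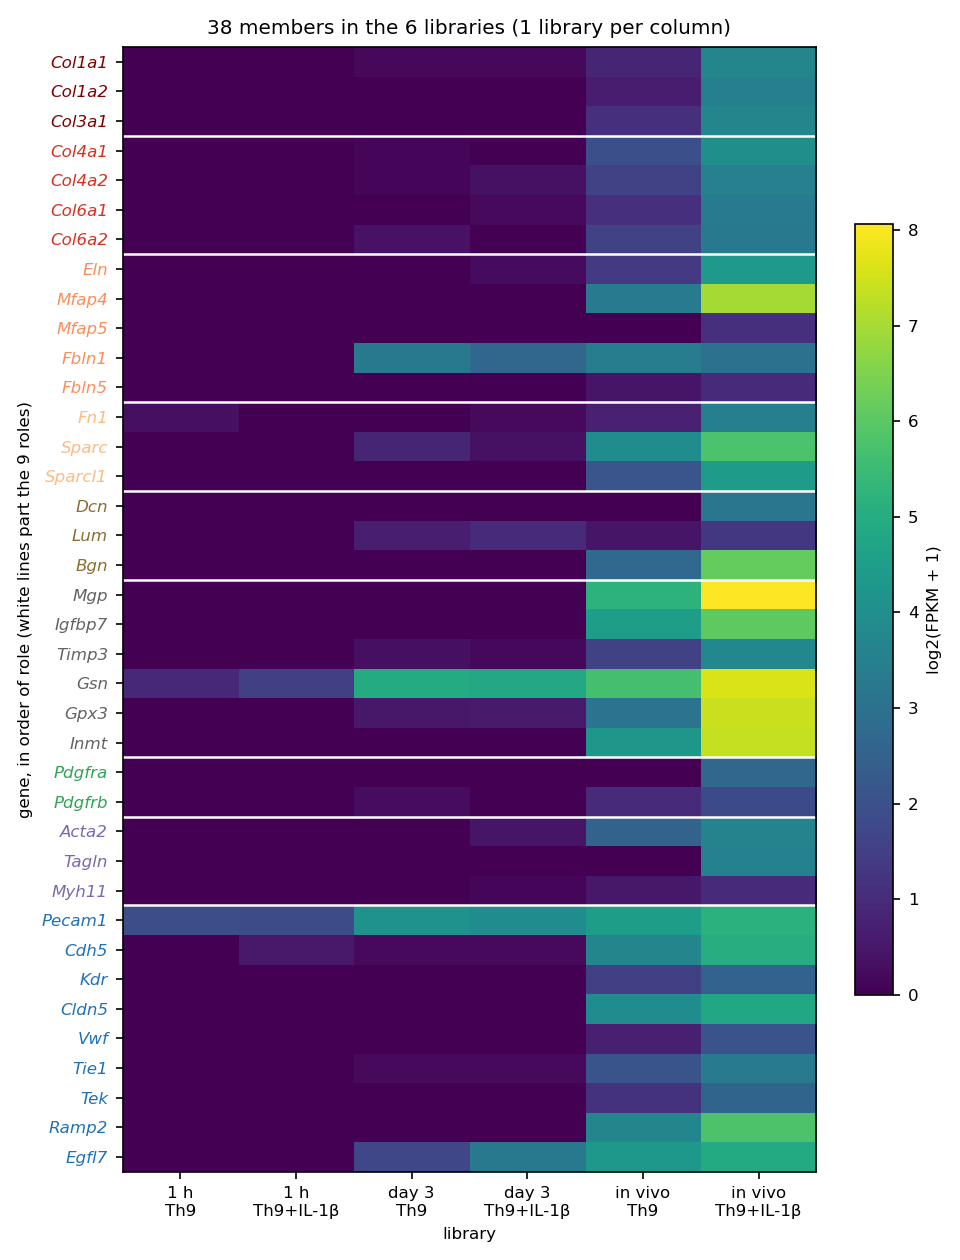
Heat map of log2(FPKM + 1) for the 38 members (rows, in order of role, names coloured by role) in the 6 libraries (columns, 1 library each). The 2 columns at 1 h and the 2 at day 3 are dark except for Gsn, Pecam1, Fbln1 and Egfl7, and the column of the Th9+IL-1β cells in vivo is the brightest, up to 266 FPKM for Mgp.

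Genes were counted as higher or lower where 3 conditions held: a ratio of (FPKM + 1) of 2-fold or more, a larger value of 5 FPKM or more, and intervals of the authors that did not overlap. "Higher" below means counted by this rule. Some listed 0 values, such as Dcn in vivo without IL-1β, have an interval of 0 to 0. Any lower bound above 0 lies apart from it. In vivo, 26 of the 38 members were higher with IL-1β than without it and 0 were lower, beside 6.23% higher and 3.48% lower among the 8639 genes compared. The median log2 ratio over all 38 members was 1.92, against 0.03 over all compared genes. The members were chosen on these values, so the count is a description of them. Only 14 members reached 5 FPKM without IL-1β. A member that reached it only with IL-1β could not be counted as lower. A further 5 members reached 5 FPKM and did not meet the rule (Fbln1, Acta2, Pecam1, Cldn5 and Egfl7), and 7 stayed under 5 FPKM in both libraries (Mfap5, Fbln5, Lum, Pdgfrb, Myh11, Kdr and Vwf).

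The fibrillar collagens form the load-bearing fibres of connective tissue. Col1a1 and Col1a2, the chains of type I collagen, were listed at 0 at 1 h and stayed at or under 0.135 FPKM at day 3. Col1a1 (mm9 chromosome 11, 94797584 to 94813170) stood at 0.778 FPKM (interval 0.148 to 1.33) in vivo without IL-1β and at 12.0 FPKM (9.22 to 14.7) with it, a ratio of 15.4. Col1a2 stood at 0.566 FPKM (0.135 to 1.08) and 10.2 FPKM (7.89 to 12.5), a ratio of 18.1. The intervals of these chains lie far apart, and both chains were higher with IL-1β. Col3a1, the chain of type III collagen, was higher at 12.1 FPKM (9.61 to 14.5) against 1.17 (0.499 to 1.87). Within the Th9+IL-1β library the 3 transcripts stood at nearly the same level per length, with Col1a1 at 1.17 times Col1a2 and at 0.993 times Col3a1; without IL-1β these proportions were 1.37 and 0.663.

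Type IV collagen makes the sheet-like network of basement membranes under endothelium and epithelium, and type VI collagen makes fine beaded filaments. Col4a1 was higher with IL-1β at 15.1 FPKM (12.5 to 17.7) against 2.94 (1.89 to 3.99), a ratio of 5.14. Its partner chain Col4a2 was higher with a ratio of 5.18, from 2.02 FPKM (1.19 to 2.92) to 10.5 (8.32 to 12.5). Col4a1 stood at 1.46 times Col4a2 without IL-1β and at 1.44 times with it. Col6a1 (9.26 against 1.11 FPKM) and Col6a2 (8.56 against 1.99 FPKM) were also higher. Col6a1 stood at 0.560 times Col6a2 without IL-1β and at 1.08 times with it. Without IL-1β the intervals of the 2 chains overlap (0.349 to 1.92 and 0.932 to 3.17 FPKM). Whether the proportion of this pair differed between the libraries therefore cannot be told. The ratios were 10.3 to 18.1 for the fibrillar chains and 4.31 to 8.32 for types IV and VI. The fibrillar values without IL-1β are at most 1.17 FPKM, and the ranges of ratio that the authors' bounds allow overlap (5.13 to 29.0 for Col3a1, 3.45 to 33.6 for Col6a1), so these groups of chains cannot be ranked.

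Promoters of 4 collagen genes are shown, among them Col4a1 and Col4a2, which lie head to head. All 7 member collagens were higher with IL-1β, so that does not set the printed genes apart. In the files (mm9) Col4a1 ends at 11312826 of chromosome 8 and Col4a2 begins at 11312829. The windows below are from RefSeq on GRCm38.p6, each of 300 bases, from 250 before to 50 after the gene's start, on the gene's own strand. Windows were found for 22 of the 38 members, 6 of them among the 7 collagens. Capitals mark the letters CCAAT or, for the other strand, ATTGG. This motif is in 37.4% of the 32851 windows of the table. It is in those of 7 of the 22 members with a window, which is no larger a share, and of 3 of the 6 collagens. These 3 collagens are all among the 4 genes printed.

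Col1a2, chr6:4505368-4505667, plus strand: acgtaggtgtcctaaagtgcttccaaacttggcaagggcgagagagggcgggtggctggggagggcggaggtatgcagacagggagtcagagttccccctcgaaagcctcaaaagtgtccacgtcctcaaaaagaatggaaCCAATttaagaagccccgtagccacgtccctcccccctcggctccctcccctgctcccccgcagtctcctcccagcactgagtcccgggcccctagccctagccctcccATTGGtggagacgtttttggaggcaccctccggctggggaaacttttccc

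Col3a1, chr1:45311288-45311587, plus strand: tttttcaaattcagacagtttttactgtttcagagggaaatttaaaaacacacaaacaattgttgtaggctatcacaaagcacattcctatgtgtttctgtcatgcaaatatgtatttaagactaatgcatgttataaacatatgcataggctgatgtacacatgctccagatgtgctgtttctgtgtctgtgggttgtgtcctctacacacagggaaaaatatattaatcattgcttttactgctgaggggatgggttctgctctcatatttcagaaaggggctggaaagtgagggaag

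Col4a1, chr8:11312777-11313076, minus strand: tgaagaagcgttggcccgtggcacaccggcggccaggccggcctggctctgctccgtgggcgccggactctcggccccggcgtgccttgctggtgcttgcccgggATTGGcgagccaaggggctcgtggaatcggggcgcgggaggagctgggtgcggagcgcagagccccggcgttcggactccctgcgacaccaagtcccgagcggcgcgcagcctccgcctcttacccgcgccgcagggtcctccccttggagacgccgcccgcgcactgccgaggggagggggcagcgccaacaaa

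Col4a2, chr8:11312555-11312854, plus strand: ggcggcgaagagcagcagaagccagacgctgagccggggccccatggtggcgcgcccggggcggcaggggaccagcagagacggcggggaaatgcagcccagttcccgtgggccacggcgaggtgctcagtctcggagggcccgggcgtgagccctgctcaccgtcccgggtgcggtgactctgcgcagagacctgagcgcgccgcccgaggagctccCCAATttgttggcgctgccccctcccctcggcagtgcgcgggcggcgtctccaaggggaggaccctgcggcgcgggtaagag

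The windows of Col4a1 and Col4a2 share 78 bases, and the 2 starts lie 21 bases apart on opposite strands. Both windows are rich in G and C (74.0% and 73.7%), as is that of Col1a2 to a lesser degree (61.0%), whereas that of Col3a1 has 37.7%. The CCAAT letters begin 109 bases before the start in Col1a2, with a second match on the other strand at the start itself, 145 bases before it in Col4a1 (other strand) and 32 before it in Col4a2. No match in Col3a1 says only that these letters are not in that window. These matches are descriptions of the sequence; no binding was measured in these samples.

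Elastic fibres let tissue recoil, and consist of elastin on a scaffold of microfibrils with fibulins. Mfap4, a microfibril-associated glycoprotein, was listed at 0 in all 4 culture libraries. In vivo it stood at 9.23 FPKM (5.05 to 13.3) without IL-1β and at 125 FPKM (93.5 to 135) with it, a ratio of 13.6. Eln, which encodes elastin, was higher at 19.7 FPKM (15.6 to 23.8) against 1.57 (0.551 to 2.57). Fbln1 went the other way from the rest, and is the only member with a log2 ratio below 0 in this comparison. It stood at 8.57 and 5.38 FPKM at day 3 and at 9.56 (6.62 to 12.4) and 6.96 FPKM (4.63 to 9.27) in vivo, without and with IL-1β. Its 4 values from day 3 on lie within a narrow range and its in vivo intervals overlap. Mfap5 and Fbln5 stayed at or under 1.17 FPKM in each library.

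Adhesive and matricellular glycoproteins link cells to matrix. Fn1, the gene of fibronectin, was higher with IL-1β at 10.1 FPKM (8.30 to 11.9) against 0.688 (0.251 to 1.09), a ratio of 14.6. Sparc, a collagen-binding protein that platelets also contain, was higher with a ratio of 3.81, from 14.1 FPKM (9.37 to 18.7) without IL-1β to 53.8 (41.8 to 61.2) with it. The related Sparcl1 was higher at 20.8 against 3.37 FPKM, a ratio of 6.16. All 3 genes were higher. The platelet genes Pf4 (44.0 against 11.7 FPKM, not meeting the rule) and Ppbp (17.9 against 4.92 FPKM, higher) also differed between these libraries in the direction of Sparc; their part in its value was not tested.

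The small leucine-rich proteoglycans decorin (Dcn), lumican (Lum) and biglycan (Bgn) bind collagen fibres. Bgn was listed at 0 in culture and was higher with IL-1β in vivo, at 69.9 FPKM (55.8 to 80.2) against 5.80 (3.20 to 8.14), a ratio of 12.1. Dcn, listed at 0 in each of the other 5 libraries, stood at 7.89 FPKM (3.94 to 11.8) in vivo with IL-1β. Lum stood at 1.48 against 0.377 FPKM, under the minimum of the rule.

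The 6 secreted regulators and enzymes made up the largest part of the signal, 48.2% of the members' summed FPKM in vivo without IL-1β and 58.2% with it, and all 6 were higher with IL-1β. Mgp (mm9 chromosome 6, 136820956 to 136824326), matrix Gla protein, an inhibitor of calcification, was listed at 0 in the 4 culture libraries. It stood at 36.0 FPKM (13.9 to 42.9) in vivo without IL-1β and at 266 FPKM with it, above its own interval of 134 to 202. Gpx3 (mm9 chromosome 11, 54716355 to 54723889), an antioxidant enzyme of plasma, had a ratio of 23.1, the largest among members above 0 in both libraries, at 171 FPKM (151 to 192) against 7.42 (3.36 to 12.0). Mgp ranked 146th and Gpx3 271st of all symbols by FPKM in the Th9+IL-1β library, so these transcripts were among its abundant ones. Inmt, a methyltransferase of small amines, stood at 164 FPKM against 18.5 FPKM (9.51 to 25.8), its higher value also above its own interval (108 to 157). Igfbp7, which binds insulin-like growth factors, was higher at 65.3 against 21.9 FPKM. Timp3, a matrix-bound inhibitor of metalloproteinases, was higher at 12.5 against 2.03 FPKM. Igfbp7, Timp3 and Tagln overlap other genes in the files (Polr2b, Syn3 and Pcsk7), and whether the counting used strand is not stated. In vivo, without and with IL-1β, Polr2b stood at 22.7 and 19.0 FPKM, Syn3 at 0.488 and 0.397 FPKM, and Pcsk7 at 9.41 and 9.11 FPKM.

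Gsn encodes gelsolin, an actin-severing protein with a cytoplasmic and a secreted form, and is the member with the highest level in culture. It stood at 0.890 and 1.91 FPKM at 1 h, at 30.5 (24.7 to 36.0) and 28.3 FPKM (22.5 to 34.1) at day 3, and at 50.8 (42.8 to 58.8) and 193 FPKM (177 to 210) in vivo, without and with IL-1β. It was higher in vivo with IL-1β, a ratio of 3.81, and its day 3 values did not differ beyond their intervals.

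PDGF receptors mark mesenchymal cells, Pdgfra chiefly fibroblasts and Pdgfrb chiefly pericytes and smooth muscle. Pdgfra was listed at 0 in 5 libraries and stood at 5.37 FPKM (3.76 to 6.98) in vivo with IL-1β. Pdgfrb stood at 2.49 FPKM (1.31 to 3.67) against 0.939 (0.134 to 1.74), under the minimum. Of the smooth muscle contractile genes, Tagln, the gene of transgelin, was higher, from a listed 0 with an upper bound of 1.03 to 10.6 FPKM (6.58 to 15.2). Acta2, smooth muscle actin, stood at 11.1 FPKM (6.46 to 15.6) against 4.94 (2.34 to 7.42); the ratio of 2.24 passes the fold, but the intervals overlap. Myh11, the smooth muscle myosin heavy chain and the most specific marker of the 3, stood at 0.960 against 0.437 FPKM. Of these 3 genes 1 was higher. Acta2 shares much of its coding sequence with other actin genes, and no source used here says how the authors divided such fragments.

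**Figure D2:**
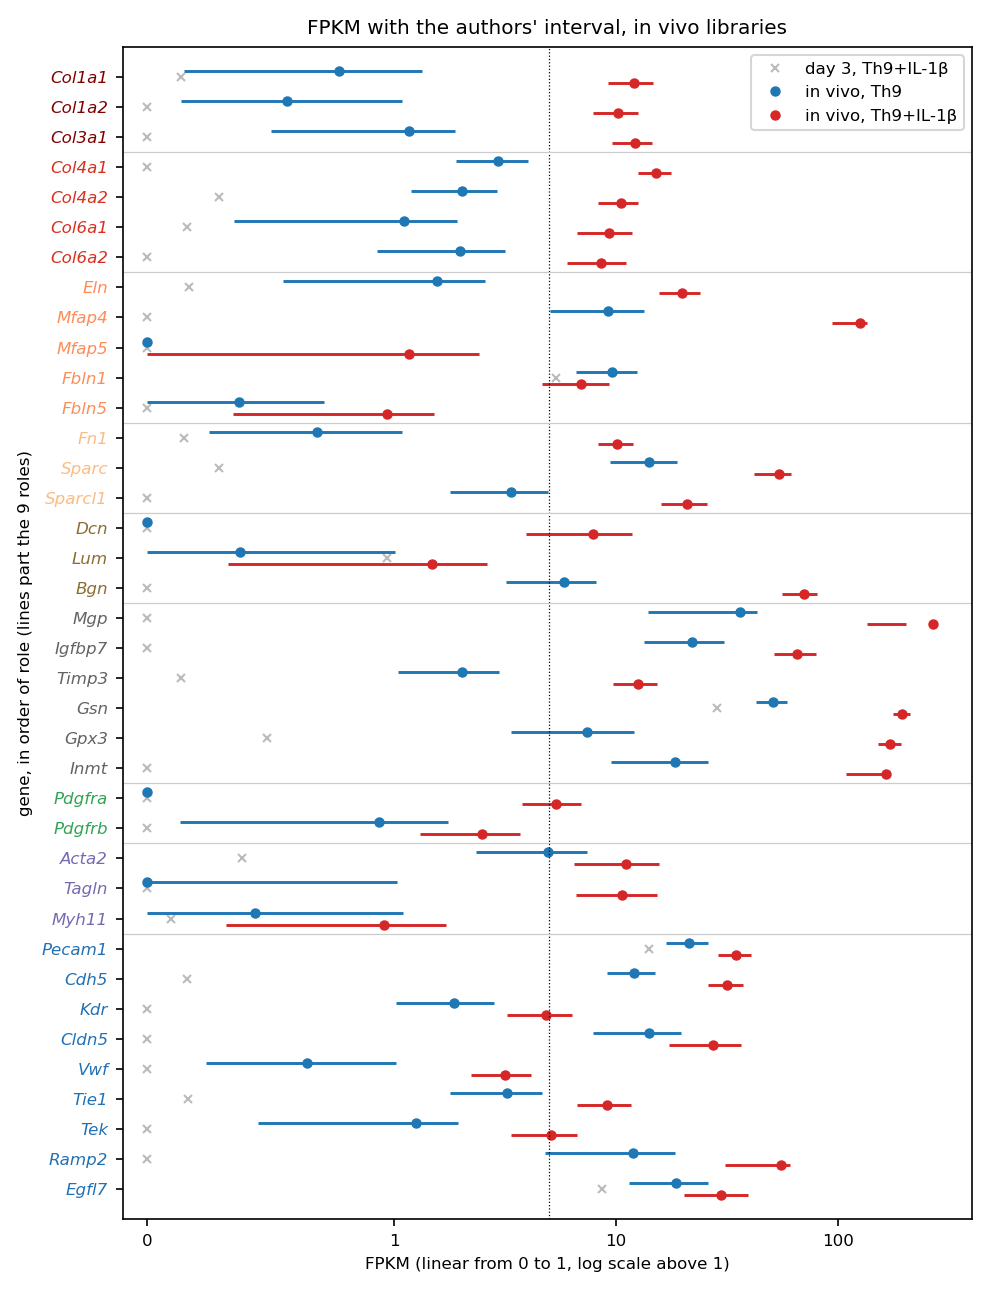
FPKM (horizontal axis, linear up to 1 and logarithmic above) of each member in vivo without IL-1β (blue) and with it (red), with the authors' intervals as lines, and at day 3 with IL-1β (grey crosses). Red lies to the right of blue for each member but Fbln1, and blue and red lines are closer together in the endothelial genes at the bottom; the dotted line is at 5 FPKM.

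The 9 endothelial members differed less between the in vivo libraries. Cdh5, the gene of VE-cadherin, the adhesion molecule of endothelial junctions, stood at 0.146 and 0.160 FPKM at day 3. In vivo it stood at 12.0 FPKM (9.06 to 15.0) without IL-1β and at 31.5 FPKM (25.8 to 37.2) with it, and was higher with a ratio of 2.62. Ramp2, a partner of the adrenomedullin receptor, was higher at 55.5 against 12.0 FPKM, a ratio of 4.64. The receptor genes of the angiopoietin system, Tie1 (9.14 against 3.24 FPKM) and Tek (5.07 against 1.26 FPKM), were higher as well. The tight junction gene Cldn5 stood at 27.3 FPKM (17.2 to 36.3) against 14.1 (7.85 to 19.6), with overlapping intervals. Kdr, a VEGF receptor, stood at 4.82 against 1.87 FPKM, and Vwf, von Willebrand factor, at 3.16 against 0.647 FPKM. Kdr and Vwf had intervals apart and ratios past 2-fold, and were left out only by the minimum of 5 FPKM.

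Pecam1 and Egfl7 were present in the cultured cells. Pecam1 (CD31), an adhesion molecule of endothelium, platelets and some leukocytes, stood at 16.8 and 14.0 FPKM at day 3 and at 21.3 (16.7 to 25.9) and 34.5 FPKM (28.7 to 40.3) in vivo. Egfl7, a secreted factor of vessels, stood at 2.30 (0 to 6.13) and 8.61 FPKM (3.66 to 13.6) at day 3 and at 18.6 and 29.7 FPKM in vivo. Neither met the rule between the in vivo libraries (ratios of 1.62 and 1.59). In all, 4 of 9 endothelial members were higher with IL-1β, against 22 of the 29 others, and the median log2 ratios were 1.26 and 2.28. Restricted to members under 1 FPKM at day 3, the summed FPKM was 136 against 45.1 for 7 endothelial genes, a ratio of 3.03, and 1098.8 against 138 for 27 others, a ratio of 7.95. Endothelial genes made up 30.0% of the members' summed FPKM in vivo without IL-1β and 13.4% with it. The share of endothelial genes in the sum was thus smaller in the library with IL-1β. Both shares include Pecam1 and Egfl7, which the day 3 cells carried, and use the values that chose the members. Ratios of single genes overlapped, with Igfbp7 at 2.98 and Sparc at 3.81 among the others and Ramp2 at 4.64 and Vwf at 4.88 among endothelial genes. With 1 library each, whether the make-up of the stromal signal differed was not tested.

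Whether the signal was absent before transfer was asked by comparing in vivo with day 3 in each arm. These comparisons use the same in vivo libraries as above. The 34 members under 1 FPKM in both day 3 libraries could meet the minimum only through an in vivo library. These 34 members could therefore not be counted as lower here. The members were also chosen with these values in view, so the counts are descriptions of them. Without IL-1β, 11 of 38 members were higher in vivo than at day 3 and 0 lower, beside 2.13% higher and 0.665% lower among 8126 genes. They were Mfap4, Sparc, Bgn, Mgp, Igfbp7, Gpx3, Inmt, Cdh5, Cldn5, Ramp2 and Egfl7, and included 4 of the 9 endothelial genes. No collagen was counted, because each stood under 5 FPKM in both libraries. Col3a1, Col4a1, Col4a2, Col6a1 and Col6a2 nonetheless had log2 ratios of 1.08 to 1.86 with intervals apart. For Col3a1 and Col6a1 the day 3 interval was 0 to 0, from which any lower bound above 0 is apart. With a minimum of 1 FPKM the count of members was 23 in place of 11, and this limit holds for other members with such an interval. With IL-1β, 30 of 38 were higher and 0 lower, beside 12.0% and 5.87% among 8572 genes. The 11 genes of the first arm were all among these 30, as were all 7 collagens, which here exceeded 5 FPKM. The 8 members not counted were Fbln1, at 6.96 against 5.38 FPKM, and the 7 members under 5 FPKM in vivo. The median log2 ratio of the 38 members was 1.23 without IL-1β and 3.26 with it.

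Before transfer the arms did not differ in these genes by the rule. At day 3, 0 of 38 members were higher and 0 lower with IL-1β, beside 1.29% and 2.15% of 7962 genes; 34 members were under the minimum, so the rule could apply to 4. Egfl7 had the largest log2 ratio, 1.54, with overlapping intervals. At 1 h, 0 of 38 were higher or lower, beside 7.72% and 0.214% of 933 genes, and no member reached 5 FPKM.

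**Figure D3:**
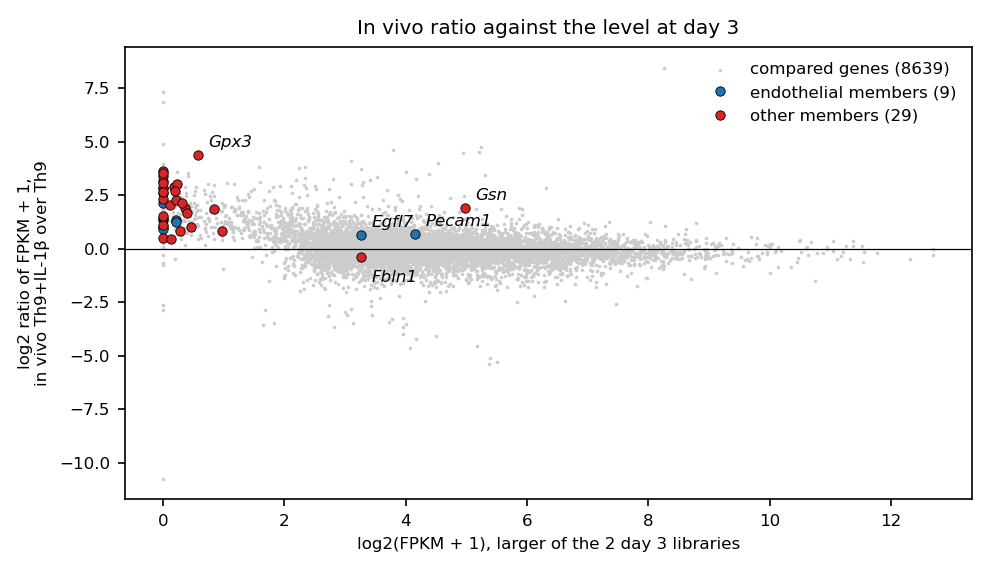
Log2 ratio of (FPKM + 1) between the in vivo libraries (vertical axis) against the level at day 3, the larger of 2 libraries, as log2(FPKM + 1) (horizontal axis), for the 8639 compared genes (grey), the 9 endothelial members (blue) and the 29 other members (red). The members stand at the left edge with ratios above 0, apart from Gsn, Pecam1, Egfl7 and Fbln1, which the day 3 cells carried.

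Further genes of the same cell types, from lists chosen with earlier results known, were read for the same comparison. Among all 8639 genes compared, 6.23% were higher and 3.48% lower. In these lists too, a gene that reached 5 FPKM only with IL-1β could not be counted as lower. Of 20 other fibroblast genes 7 reached 5 FPKM in vivo, each only with IL-1β, so none could be counted as lower. All 7 were higher with IL-1β. The median log2 ratio over all 20 was 1.92, and the summed FPKM was 101 against 6.71, a ratio of 15.1. Tcf21, a transcription factor of fibroblast precursors, stood at 15.2 against 0.697 FPKM. Npnt, nephronectin, stood at 14.2 against 0.809 FPKM, Pcolce2 at 15.5 against 1.70 FPKM, Limch1 at 12.2 against 0.858 FPKM and Cxcl14 at 9.88 against 0.436 FPKM, and all 5 were higher. Dpt, dermatopontin, reached 7.32 FPKM against a listed 0. These genes were listed at 0 at day 3 in both arms.

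Of 48 other matrix genes 13 were higher and 1 lower, with a median of 0.99. Prelp (23.4 against 1.03 FPKM), Ltbp4 (26.8 against 1.43 FPKM), the procollagen processing enhancer Pcolce (14.2 against 1.06 FPKM) and Cyr61 (13.7 against 0.387 FPKM) were higher, as was Timp2 (23.1 against 9.22 FPKM). The summed FPKM of this list hardly differed (412 against 383). Ecm1, at 289 and 240 FPKM in the day 3 cells, stood at 173 against 324 FPKM in vivo and held most of the sum without IL-1β. Its smaller value with IL-1β offset larger values of other genes of the list. The lower gene, named after its value was seen, was Lama5 at 4.07 against 9.53 FPKM. Of 36 other collagen genes 1 was higher, Col11a2 at 5.69 against 2.07 FPKM, and the rest stayed under 5 FPKM, with Col6a3 at 3.32 FPKM and Col13a1 at 2.55 FPKM against a listed 0 for each.

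Of 31 other endothelial genes 13 were higher and 0 lower, with a median of 1.15 and a summed FPKM of 374 against 154, a ratio of 2.43. Plvap, of fenestrated and capillary endothelium, was higher at 36.4 against 16.0 FPKM, Cav1, caveolin, at 36.9 against 16.1 FPKM, and the water channel gene Aqp1 at 24.8 against 6.87 FPKM. Eng (23.8 against 5.96 FPKM), Tmem100 (26.4 against 9.53 FPKM) and Icam2 (41.0 against 16.8 FPKM) were higher as well. The day 3 cells already held Icam2 at 13.5 and 18.7 FPKM and Eng at 3.93 and 4.69 FPKM, without and with IL-1β. Against day 3, Icam2 did not meet the rule in either arm. Of the genes of capillary endothelium, Gpihbp1 stood at 13.6 against 11.1 FPKM and Car4 at 14.2 against 9.76 FPKM; these 2 did not meet the rule and were named after their values were seen. The lymphatic regulator Prox1, also named afterwards, was listed at 0 in both. This list and the endothelial members gave nearly the same ratio (2.43 and 2.36), below that of the fibroblast list. Both sums include genes that the day 3 cells carried, and the 7 endothelial members under 1 FPKM at day 3 gave 3.03. Of 22 other smooth muscle and pericyte genes 1 was higher (Mylk, 6.18 against 0.734 FPKM) and 1 lower (Hspb6, 8.81 against 26.7 FPKM, which the day 3 cells held at 21.6 and 18.3 FPKM). Their median was 0.43 and their summed FPKM 45.2 against 39.4, a ratio of 1.15. Hspb6 held much of the sum without IL-1β. No gene of the mesothelial list reached 5 FPKM.

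**Figure D4:**
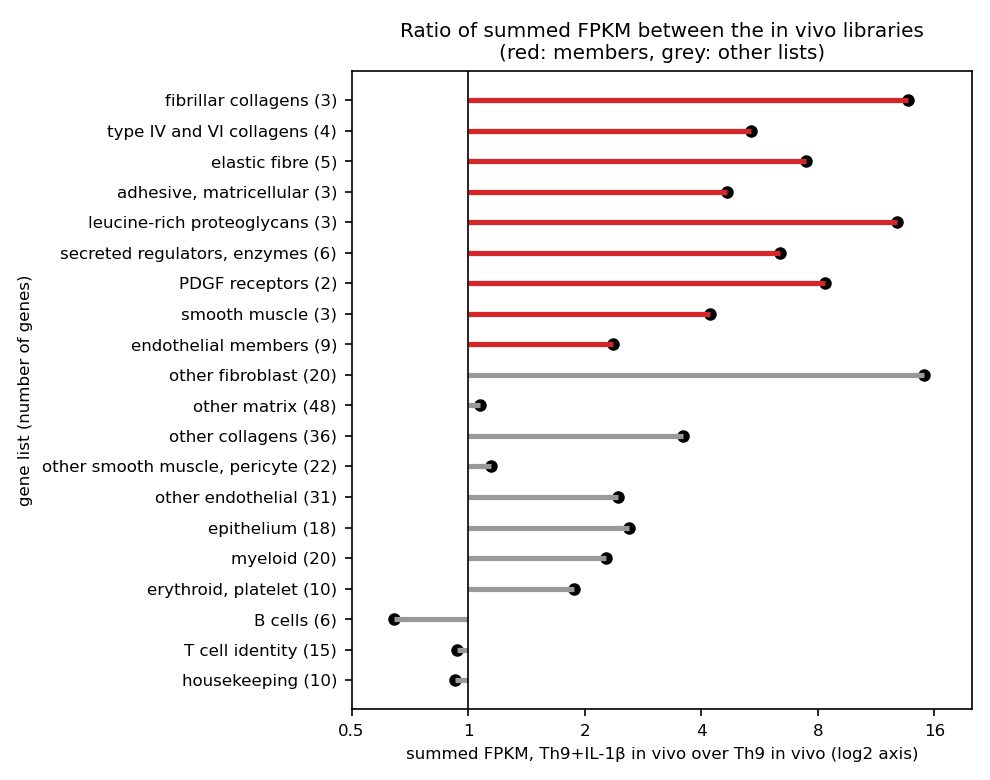
Ratio of the summed FPKM of each gene list in vivo with IL-1β over that without it (horizontal axis, log2-scaled), with the number of genes in brackets; red bars are the 9 roles of the members, grey bars the other lists. Fibrillar collagens (13.6), leucine-rich proteoglycans (12.8) and other fibroblast genes (15.1) lie farthest to the right. The endothelial, epithelial and myeloid lists lie between 2.27 and 2.61, and T cell identity genes at 0.935. Sftpc and Scgb1a1 hold most of the epithelial sums. Ecm1 holds most of the sum of the other matrix genes without IL-1β, and stands at 173 FPKM with it against 324 FPKM without.

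Some transcripts of other cell types were also higher in the Th9+IL-1β library in vivo. Of 18 genes of airway and alveolar epithelium 12 were higher in vivo with IL-1β and 0 lower, and their summed FPKM was 17815 against 6830, a ratio of 2.61. At day 3 the sum was 22.1 and 22.4 FPKM. Sftpc (10010.5 against 3512 FPKM) and Scgb1a1 (5710 against 2735.5 FPKM) held most of both in vivo sums. Each of these values lies above its own interval. Sftpb stood at 900 against 202 FPKM, Sftpa1 at 384 against 113, Sftpd at 201 against 61.0 and Slc34a2 at 152 against 35.6. The median log2 ratio of the 18 genes was 1.60. Of 20 myeloid genes 4 were higher, with a sum of 3068 against 1350, a ratio of 2.27. Lyz2, at 1614 against 521 FPKM, held most of that difference, whereas the neutrophil gene S100a9 stood at 116 against 117 FPKM. Of 10 erythroid and platelet genes 2 were higher, with a sum of 747.5 against 398.5. One of these 2, Hba-a2, is a near-identical copy of Hba-a1, and fragments of such copies can be divided unequally. B cell genes did not follow, with 0 of 6 higher, 1 lower and a sum of 28.9 against 45.1. The part of these cells in the members' values was not tested.

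T cell RNA stood at similar levels in the day 3 and in vivo libraries. The 15 T cell identity genes summed to 3765 and 3973 FPKM at day 3 and to 3605 and 3370 FPKM in vivo, and 0 of 15 were higher or lower in vivo with IL-1β. Thy1, Cd2, Lat and Cd3e stood between 318 and 742 FPKM in each in vivo and day 3 library but for Cd2 at 786 FPKM and Lat at 298 and 238 FPKM. Per 1000 FPKM of T cell identity genes, the members summed to 16.3 and 15.1 FPKM at day 3, to 78.7 in vivo without IL-1β and to 445 with it. This ratio was 4.84 times its day 3 value without IL-1β and 29.5 times with it, and differed by 5.66 times between the in vivo libraries. At 1 h it was 35.1 without IL-1β and 34.6 with it, above the day 3 values. There the T cell identity genes summed to only 112 and 146 FPKM, and the members to 3.92 and 5.05 FPKM.

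Genes outside the members had the same pattern. Of the 538 genes higher in vivo with IL-1β, 219 (40.7%) stood under 1 FPKM in both day 3 libraries. They included 25 members, 11 other matrix genes, 7 other fibroblast genes, 10 other endothelial genes and 8 epithelial genes, and 154 genes in none of the lists. A gene this low at day 3 entered the comparison only by reaching 5 FPKM in an in vivo library, so no share of such genes is given. By log2 ratio, 12 members ranked among the top 100 of 8639 compared genes and 25 among the top 500. The members were chosen with the in vivo values in view, so these ranks only describe that choice. In vivo 31 members reached 5 FPKM with IL-1β and 14 without it, so many entered the ranking only through the Th9+IL-1β library.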

How the data were processed

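RNA of 6 libraries (1 per group) was read through the values the authors deposited: FPKM per gene and its bounds on either side, per the file headers. TopHat and the mouse build mm9 are named in the submitters' processing notes, but no source used here gives versions, the tool that made the FPKM or the level of the bounds. Of 23700 entries per file, the 285 whose status was not OK were left out, and entries of a symbol were summed with their bounds, giving 23091 symbols; each of the 38 members has 1 entry. All 5 comparisons used the log2 ratio with a pseudocount of 1 and the rule in the report. There is 1 library per group, so no p-value was computed. The members and all lists were chosen with earlier results of these data known.

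All 38 members are accounted for, with the fullest values for those at 5 FPKM or more in vivo, and values are given for up to 6 genes of each other list with the largest FPKM in vivo (4 for T cell identity), and for the 10 genes in no list with the largest FPKM among those low at day 3 and higher in vivo with IL-1β. Other genes are marked as named after their values were seen. Loci follow the files (mm9, counted from 1); promoters are RefSeq's on GRCm38.p6 and were not converted. Alternatives were the pseudocount, minimum, fold, intervals, 3 scalings, the largest entry per symbol and entries of any status. Python 3.11.15, numpy 2.4.6, pandas 2.3.3 and matplotlib 3.10.9 were used.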

Additional observations from a re-analysis of the deposited data

How the results depend on the processing

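The count of 26 members higher in vivo with IL-1β stayed within 1.5 times under all 12 alternatives, and 0 members were lower under each. No single member called in that comparison changed direction. A pseudocount of 5 left Col6a2, Tie1 and Tek outside the rule, and a fold of 3 left Igfbp7, Cdh5, Tie1 and Tek outside; without the minimum, Kdr and Vwf met it. The median log2 ratio with a pseudocount of 5 was 1.27 in vivo with against without IL-1β. For in vivo against day 3 the median was 3.55 without IL-1β and 5.76 with it at a pseudocount of 0.1, and 0.41 and 1.59 at a pseudocount of 5, since many members are listed at 0 at day 3. Without IL-1β, 23 members were higher than at day 3 with a minimum of 1 FPKM, and 23 with no minimum, against 11. At day 3, 1 member (Egfl7) was higher when intervals were not used. The ratio of the members' summed FPKM in vivo stayed within 1.5 times of 5.29 without Mgp and without the members at 1 FPKM or more at day 3. With 1 library per group, no library could be left out, and depth, which is unknown, limits values near 0.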

Other observations

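Among the genes in no list that were under 1 FPKM at day 3 and higher in vivo with IL-1β, the 10 with the largest FPKM included 5 genes known from airway or alveolar epithelium. Cbr2, a carbonyl reductase, stood at 492 against 181 FPKM, the chemokine gene Cxcl15 at 204 against 50.2 FPKM, the cytochrome gene Cyp2f2 at 94.8 against 42.0 FPKM, Sfta2 at 84.4 against 20.3 FPKM and the mucin gene Muc1 at 51.5 against 8.67 FPKM. The others were Rnase4 (68.6 against 15.1 FPKM), the complement gene C1qb of macrophages (50.1 against 11.7 FPKM), Tspan7 (50.2 against 14.0 FPKM), and Fosb, an immediate early gene, at 61.8 against 9.61 FPKM. The pseudogene Atp6v0c-ps2 stood at 159 FPKM against a listed 0; how fragments shared with its parent gene were divided is not known here.

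Foxf1a, placed here in the endothelial list and named after its value was seen, stood at 15.8 against 0.838 FPKM in vivo with and without IL-1β, a log2 ratio of 3.20, the largest of that list. The median of the list was 1.15 and that of the other fibroblast genes 1.92.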
